A study of Mus musculus with 2 samples.

Results

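The regions described here are the 50 kb windows that have no row in an allele-specific table of ATAC-seq counts from mouse embryonic stem cells. For each chromosome, a 50 kb grid was laid from the lowest start to the highest end in the table, and every grid window with no row was taken as a member. This gave 3978 of 47919 grid windows (8.30%), or 198.9 Mb, and the other 43941 windows are the rows of the table. The choice rests on the presence of a row and uses no count, and why a window has no row is not given in the sources used here.

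ATAC-seq marks open chromatin by letting a transposase insert sequencing adapters where DNA is accessible. It was run on 2 replicates of F121-6, a female hybrid embryonic stem cell line with 1 chromosome set from 129 mice and 1 from CAS (castaneus) mice. The cells were grown with LIF on mouse embryonic fibroblast feeders inactivated with mitomycin C, so both replicates share the genotype and the culture, and feeder cells are a possible source of fragments. Nothing in the labels tells whether 2 cultures were grown, and p-values therefore measure only the spread between these 2 libraries, which may be technical. The table has 1 column of whole-number counts per allele and replicate, with totals of 44026 and 59812 for the 129 allele and 46128 and 59995 for the CAS allele (replicates 1 and 2).

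What 1 count stands for is not given, and the highest value in a column was 12 to 18, so confidence intervals and floors cover counting error only. The grid spans chromosomes 1 to 19 in mm10, without X, which is not analysed here. Gene positions came from RefSeq on GRCm38.p6, the same primary assembly as mm10, and a gene is placed in the window that holds its lowest coordinate. All coordinates are 1-based.

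To tell which parental chromosome a fragment came from, it must map to 1 place in the genome and carry a base that differs between the parents. Many mouse gene families lie in tandem clusters made by repeated duplication, and the members of a young cluster can be nearly identical over long stretches. Receptors for odours and pheromones, secreted pheromone carriers, defensins and zinc finger repressors are the best known of these clusters.

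The promoters of 3 such clusters are shown because they show how alike genes inside a run of windows with no row can be. They come as pairs picked for their likeness among the genes of a run. Each promoter is the 150 bases before the gene's start, read 5′ to 3′ on the gene's strand, from RefSeq on GRCm38.p6. Vmn1r129 (chr7:21361292-21361441, minus strand) and Vmn1r249 (chr7:21844268-21844417, minus strand) encode vomeronasal receptors, and the capital marks the 1 base at which they differ.
Vmn1r129: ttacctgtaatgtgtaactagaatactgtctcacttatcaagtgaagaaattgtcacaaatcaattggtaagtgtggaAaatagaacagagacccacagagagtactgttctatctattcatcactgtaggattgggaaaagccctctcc
Vmn1r249: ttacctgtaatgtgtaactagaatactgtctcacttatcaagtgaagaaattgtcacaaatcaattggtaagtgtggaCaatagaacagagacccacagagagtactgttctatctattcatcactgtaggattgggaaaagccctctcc
Pramel37 (chr5:94070546-94070695, minus strand) and Pramel39 (chr5:94306797-94306946, minus strand), of the PRAME-like family, have no differing base.
Pramel37: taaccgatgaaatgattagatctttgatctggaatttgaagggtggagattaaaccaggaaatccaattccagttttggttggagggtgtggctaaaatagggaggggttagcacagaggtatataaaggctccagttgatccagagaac
Pramel39: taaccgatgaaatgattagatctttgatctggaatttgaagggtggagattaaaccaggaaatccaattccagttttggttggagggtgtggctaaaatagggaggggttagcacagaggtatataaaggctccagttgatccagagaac
Mup15 (chr4:61439705-61439854, minus strand) and Mup19 (chr4:61782225-61782374, minus strand) encode major urinary proteins, and capitals mark the longest run of bases they share, 144 bases.
Mup15: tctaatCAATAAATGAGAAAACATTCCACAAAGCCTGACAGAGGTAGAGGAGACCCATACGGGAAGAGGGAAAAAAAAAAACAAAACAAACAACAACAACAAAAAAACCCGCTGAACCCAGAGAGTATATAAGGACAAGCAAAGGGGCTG
Mup19: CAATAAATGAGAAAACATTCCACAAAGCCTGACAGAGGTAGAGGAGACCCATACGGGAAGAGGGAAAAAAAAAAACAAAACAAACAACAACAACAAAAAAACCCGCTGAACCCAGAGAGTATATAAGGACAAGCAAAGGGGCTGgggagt

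The starts of these pairs lie 483 kb (Vmn1r), 236 kb (Pramel) and 343 kb (Mup) apart, far more than 1 window. In the Vmn1r run, 253 of 820 pairs among 41 genes shared at least 50 bases in a row within the 150 bases, and 21 pairs were identical. In the Pramel run, 16 of 55 pairs among 11 genes did so, and 4 were identical. In the Mup run, 18 of 45 pairs among 10 genes did so, and 0 were identical over all 150 bases. Over all pairs of a run, the median longest shared stretch was 39 (Vmn1r), 7 (Pramel) and 41 (Mup) bases.

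A second set is shown because windows with no row also hold genes whose promoter has no such copy. Klf2 (chr8:72318912-72319061, plus strand) and Fgf4 (chr7:144861236-144861385, plus strand) are a pluripotency transcription factor and a growth factor made by embryonic stem cells, and Cdh10 (chr15:18820179-18820328, plus strand) encodes a cadherin, a cell adhesion protein. Capitals mark CG, the dinucleotide that DNA methylation acts on and that is dense in promoters active in many cell types.
Klf2: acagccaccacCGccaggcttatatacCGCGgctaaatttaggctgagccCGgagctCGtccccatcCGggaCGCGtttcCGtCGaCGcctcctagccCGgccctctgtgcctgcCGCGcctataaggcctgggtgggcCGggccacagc
Fgf4: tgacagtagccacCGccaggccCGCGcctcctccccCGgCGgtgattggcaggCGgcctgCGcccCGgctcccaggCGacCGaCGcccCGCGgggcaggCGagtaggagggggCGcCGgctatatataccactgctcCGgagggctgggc
Cdh10: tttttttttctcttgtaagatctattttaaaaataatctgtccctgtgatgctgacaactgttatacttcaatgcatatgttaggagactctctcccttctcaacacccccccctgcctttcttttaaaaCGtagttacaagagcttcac
These stretches hold 15 CG (Klf2), 17 CG (Fgf4) and 1 CG (Cdh10), and for each of them 0 other genes had a promoter sharing 50 bases.

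The 3978 windows fell into 1207 runs of neighbouring windows, with a median of 2 and a highest of 56 windows. Runs of 1 window were the most frequent, 548 runs with 13.8% of the windows. Runs of 2 to 4 windows numbered 436 (29.1% of the windows) and runs of 5 to 9 windows numbered 147 (22.9%). The 76 runs of 10 or more windows were few but held 1362 windows, 34.2% of all windows with no row. Between runs, 292 stretches consisted of 1 row alone, and joining runs across such a row gave 915 runs with a highest of 68 windows.

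The share of windows with no row differed between chromosomes. Chromosome 2 had 577 such windows (16.1% of its grid), chromosome 17 had 240 (13.1%), chromosome 15 had 235 (11.6%) and chromosome 19 had 132 (11.5%). At the other end, chromosome 18 had 33 (1.88%), in runs of at most 3 windows, and chromosome 10 had 86 (3.37%). With the grid of each chromosome cut into 10 equal parts, the share was 6.98% in the part at the low-coordinate end and 13.3% in the next. It was then 10.1%, 9.12%, 8.50%, 7.36%, 6.51%, 6.66%, 5.67% and, in the last part, 8.89%. Windows with no row were thus found along the whole grid, with the highest share close to its start but not at it.

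**Figure D1:**
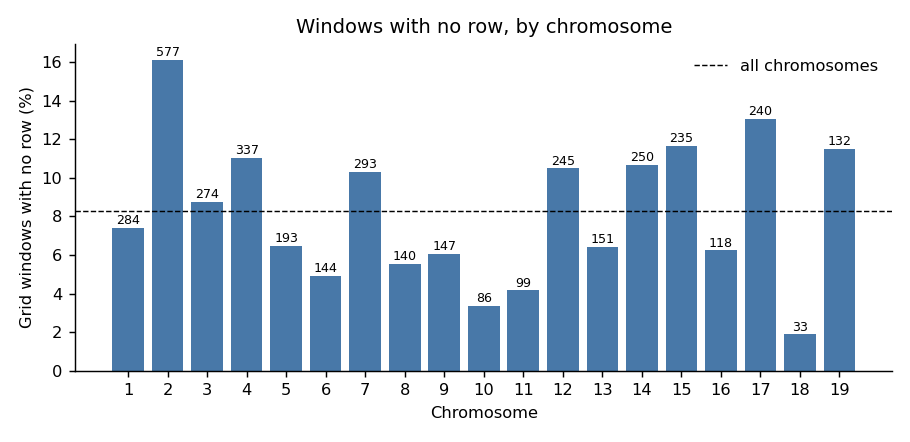
Share of the 50 kb grid windows of each chromosome that have no row in the table, in percent; the number above a bar is the number of such windows and the dashed line is the share over all chromosomes (8.30%). Chromosome 2 stands highest at 16.1% and chromosome 18 lowest at 1.88%.

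In segments of 10 Mb the windows were more concentrated still. Of 223 segments with at least 150 grid windows, 28 had no such window, the median was 4.50%, and 18 had over 25%. The segment of chromosome 2 from 80 to 90 Mb, which overlaps a run with 100 olfactory receptor genes, had 127 of 200 windows with no row (63.5%). The segments that followed were 20 to 30 Mb of chromosome 12 (46%), 40 to 50 Mb of chromosome 2 (44%) and 140 to 150 Mb of chromosome 4 (39%).

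Windows with no row were not empty of genes. A protein-coding gene overlapped 62.0% of them, against 57.8% of the rows, and no gene overlapped 20.2% of them, against 23.8% of the rows. Pseudogenes overlapped 24.6% against 16.1%, and a gene of the families listed below 14.1% against 5.12%. Of all 46485 genes on the grid, 4839 (10.4%) start in a window with no row, and of 20461 protein-coding genes 2182 (10.7%) do. By kind of transcript, the share was 13.1% for pseudogenes and 6.67% for long noncoding RNAs.

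Of 52 coding gene families listed by symbol, 39 had a gene in a window with no row and 13 had none, and in 26 the share was above the 10.4% of all genes. Over the families together, 20.3% of the genes start in such windows, against 7.32% of the protein-coding genes outside them. The PYHIN genes, sensors of foreign DNA in innate immunity, had the highest share among families of 5 or more genes, 13 of 14. The Raet1 genes, with H60b counted among them, encode ligands of an activating receptor of natural killer cells and had 4 of 5. The major urinary proteins, which carry pheromones in urine, had 17 of 22.

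Skint genes, named for a member that selects skin T cells in the mouse thymus, had 7 of 11 genes in windows with no row, or 4 of 11 (36.4%) where the whole gene had to lie in such windows. Pramel genes, leucine-rich repeat genes expressed in the germ line and early embryo, had 31 of 50. The replication-dependent histone genes, which supply histones during DNA synthesis and are active in every dividing cell, had 30 of 71.

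The shares of several larger families were lower. Vomeronasal receptors, which detect pheromones, had 132 of 352 genes in windows with no row (37.5%), and olfactory receptors 340 of 1419 (24.0%). Defensins, antimicrobial peptides, had 28 of 83 (33.7%), T cell receptor V segments 45 of 178 (25.3%), and KRAB and other zinc finger genes 70 of 431 (16.2%). Predicted genes with a Gm symbol had 2152 of 19913 (10.8%), close to the share of all genes, but among the protein-coding ones of these 290 of 887 did (32.7%), against 10.7% of all protein-coding genes. MicroRNA genes, with 66 of 1091 (6.05%), and immunoglobulin V segments, with 7 of 348 (2.01%), were below it.

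Other clustered families had no gene in windows with no row. Hox genes, the body-axis regulators, had 0 of 39 genes in such windows and the clustered protocadherins, cell adhesion proteins of neurons, 0 of 58. Keratin-associated proteins (0 of 56), kallikreins (0 of 38) and Mas-related receptors (0 of 30) also had none.

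**Figure D2:**
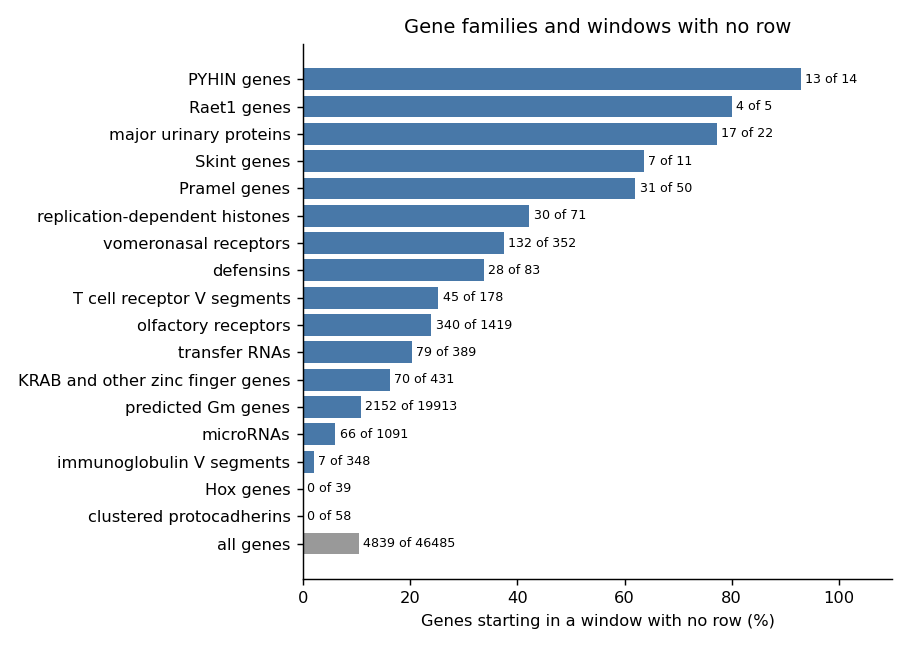
Share of the genes of each family whose lowest coordinate lies in a window with no row, in percent, with the number of genes beside each bar; the grey bar is all genes (10.4%). The shares run from 13 of 14 PYHIN genes to 0 of 58 clustered protocadherins.

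Within a family the chromosomes differed. Of the olfactory receptor genes, 245 of 377 on chromosome 2 (65.0%) and 31 of 63 on chromosome 17 (49.2%) were in windows with no row. Chromosome 7 had 15 of 294, chromosome 9 had 3 of 179, and chromosomes 19 and 10 had 0 of 91 and 0 of 80. Of the Vmn1r genes, the first class of vomeronasal receptors, 74 of 124 on chromosome 7 and 24 of 36 on chromosome 13 were in such windows, but 3 of 52 on chromosome 6 and 0 of 14 on chromosome 17. Of the Vmn2r genes, the second class, 24 of 52 on chromosome 7 and 6 of 8 on chromosome 3 were, but 0 of 32 on chromosome 17.

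Ribosomal, transfer and small nucleolar RNA genes without a row were concentrated in a few runs. All but 1 of the 30 ribosomal RNA genes without a row (of 60 on the grid) are 5S genes in 1 window, chr8:123550001-123600000. Of 79 transfer RNA genes in windows with no row (of 389 by symbol), 45 lie in the run chr13:22850001-23600000, which also holds 15 histone genes, starting with H4c8, H2ac10, H3c8 and H2bc9. Another 25 lie in the run chr3:96000001-97150000, which holds Terc, the RNA template of telomerase (named after its position was seen). Of 264 small nucleolar RNA genes (of 1274), 119 lie in chr7:59350001-59600000 and 60 in chr7:59700001-59900000.

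Of the 11 longest runs (2 tied at 27 windows), 8 hold genes of the receptor, Pramel, major urinary protein or zinc finger families and 3 hold none of the listed coding families. They have 22 rows at their edges, of which 14 were at 0 in all 4 columns, and the highest sum over the columns was 11. The longest run, 56 windows at chr7:7200001-10000000, holds 21 vomeronasal receptor genes, among them Vmn2r29, Vmn2r30, Vmn2r31 and Vmn2r32. The row before it had 1 and 1 counts from the 129 allele in replicates 1 and 2, against 2 and 2 from CAS, and the row after it 0 in every column.

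The next run, 45 windows at chr2:88350001-90600000, holds 100 olfactory receptor genes, from Olfr1178 on. Its left edge was at 0, and its right edge had 0 and 2 counts from each allele in replicates 1 and 2. The run of 43 windows at chr7:21150001-23300000 holds 42 vomeronasal receptor genes, among them Vmn1r129 and Vmn1r249, whose promoters are shown above. Both rows at its edges were at 0 in every column.

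The run of 42 windows at chr5:93700001-95800000 holds 16 Pramel genes, starting with Pramel35, Pramel36, Pramel37 and Pramel38. Its left edge was at 0 and its right edge had 1 count, from CAS in replicate 2. The run of 38 windows at chr17:38000001-39900000 holds 11 olfactory receptor genes and genes for exocrine gland-secreted peptides such as Esp36, which act as pheromones. The row before it had the highest sum beside these runs, with 3 and 3 counts from the 129 allele in replicates 1 and 2, against 2 and 3 from CAS, and the row after it was at 0.

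The run of 37 windows at chr2:175200001-177050000 holds 6 zinc finger genes such as Zfp968, with 2 and 3 counts from the 129 allele, against 1 and 1 from CAS, in the row before it and 0 in the row after it. The run of 35 windows at chr4:60050001-61800000 holds 16 major urinary protein genes, starting with Mup7, Mup2, Mup8 and Mup9, and both rows at its edges were at 0. A run of 27 windows at chr4:145150001-146500000 holds 5 zinc finger genes, such as Zfp990. The rows at its edges had 2 counts each over the 4 columns.

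The other 3 of the 11 runs hold other genes. The run of 32 windows at chr3:59200001-60800000 overlaps Aadac, an esterase gene, and the Aadac-like genes Aadacl2, Aadacl2fm1, Aadacl2fm2 and Aadacl2fm3. It also overlaps the purine receptor genes P2ry12 and P2ry13, the succinate receptor gene Sucnr1 and Mbnl1, a regulator of splicing. Its left edge was at 0 and its right edge had 0 and 1 counts from the 129 allele, against 1 and 0 from CAS. The run of 32 windows at chr4:41250001-42850000 holds copies of the chemokine genes Ccl21 and Ccl27, which guide lymphocytes and other leukocytes, and of the interleukin 11 receptor gene Il11ra, beside genes such as Galt. The run of 27 windows at chr12:23150001-24500000 holds 8 protein-coding genes, among them Taf1b, and most of the 8 are predicted. Both rows at the edges of the chromosome 4 run and of the chromosome 12 run were at 0.

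Other families of the highest shares had shorter runs. The 13 PYHIN genes lie in 1 run of 14 windows at chr1:173400001-174100000, starting with Ifi206, Ifi214, Ifi213 and Ifi209. Its edges were among the better covered: the row before it had 5 and 6 counts from the 129 allele, against 4 and 4 from CAS, and the row after it 1 and 5 against 1 and 5. Of the defensins, 27 lie in chr8:21100001-21700000, starting with Defa30, Defa22, Defa31 and Defa41, with both edge rows at 0. The T cell receptor V segments without a row all lie in 2 runs of 4 windows on chromosome 14, chr14:53150001-53350000 and chr14:52800001-53000000.

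The Raet1 run, chr10:21900001-22450000, is the longest of chromosome 10, with 11 windows, the genes Raet1e, H60b and Raet1d, and 0 in every column on both sides. The largest Skint run, chr4:112050001-112650000, holds Skint4, Skint3, Skint9 and Skint2. Its edge rows had 1 and 1 counts from the 129 allele, against 1 and 0 from CAS, and on the other side 2 and 1 against 1 and 5. The zinc finger run with the most listed genes, 10 in 19 windows at chr4:146950001-147900000, starts with Rex2 and Zfp978.

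Not all of the 76 runs of 10 or more windows hold a gene of a listed family. Such a gene starts in 30 of them and in 46 none does, and 68 overlap a protein-coding gene while 8 do not. Families were listed by symbol, so the 46 can hold clusters of other related genes. The run chr17:39950001-40800000, for example, holds Esp and Crisp genes and no gene of a listed family. Of the 76 runs, 19 had edge rows at 0 in all columns on both sides, 35 on 1 side, and 22 had a count on both sides. The longest run of chromosome 15, 24 windows at chr15:18050001-19250000, holds 1 protein-coding gene, Cdh10, and both its edges were at 0. The longest of chromosome 1, 21 windows at chr1:81100001-82150000, overlaps 1, Nyap2, an adaptor of neuronal signalling, and its edges held 1 count in all.

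Some long runs hold genes that dividing cells use, and others hold genes of other kinds. On chromosome 16, runs of 13 windows at chr16:40050001-40700000 and chr16:38100001-38750000 tie as the longest. The first overlaps 1 protein-coding gene, Lsamp. The second overlaps 13 protein-coding genes, among them the kinase gene Gsk3b and the cytochrome oxidase assembly gene Cox17. The row before it had 1 and 1 counts from each allele, and the row after it 1 and 0 from the 129 allele, against 0 and 2 from CAS. The longest run of chromosome 9, 12 windows at chr9:102250001-102850000, overlaps Cep63, a centrosome gene, and Anapc13, of the anaphase-promoting complex. The longest run of chromosome 6, 18 windows at chr6:84550001-85450000, overlaps Exoc6b, of the exocyst, and Emx1, a homeobox gene of the forebrain.

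The longest runs of the other chromosomes also held genes of listed families, predicted genes or other genes. That of chromosome 8, 22 windows at chr8:19700001-20800000, that of chromosome 13, 22 windows at chr13:65350001-66450000, and that of chromosome 14, 22 windows at chr14:42000001-43100000, hold mostly predicted genes. That of chromosome 11, 12 windows at chr11:57950001-58550000, holds olfactory receptor genes and the interferon-induced GTPase genes Igtp and Irgm2. Those of chromosome 19, tied at 16 windows, are chr19:31650001-32450000, which overlaps Prkg1, a cGMP-dependent kinase gene, and chr19:57350001-58150000, which overlaps Fam160b1, Trub1 and Atrnl1. On chromosome 18, where no run exceeded 3 windows, a run of 3 at chr18:6950001-7100000 overlaps Mkx and Armc4.

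3 further runs were picked after their gene content was seen. The run of 11 windows at chr2:119550001-120100000 overlaps 16 protein-coding genes, among them Nusap1 and Oip5, which act in mitosis, and Mga, a transcription factor. The run of 13 windows at chr2:31500001-32150000 overlaps the kinase gene Abl1 and the nuclear pore gene Nup214. The run of 17 windows at chr1:37450001-38300000 overlaps Eif5b, of translation initiation, and Rev1, a DNA polymerase that bypasses lesions. Their edge rows had 1 and 1 counts from each allele (before the Nusap1 run), 2 and 4 from the 129 allele, against 2 and 2 from CAS (before the Abl1 run), and 1 count in all (before the Eif5b run). The rows after the Nusap1 and Eif5b runs were at 0 in every column, and the row after the Abl1 run had 2 counts in all.

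The likeness of promoters seen in the 3 clusters was counted over the table. For 31208 RefSeq promoters on the grid (250 bases before to 50 after the start, of 25616 genes), a promoter was called copied where at least 50 bases in a row also occur in the promoter of another gene that does not overlap it. In windows with no row 716 of 3003 promoters were copied (23.8%), against 167 of 1689 (9.89%) in the rows that border such a window and 988 of 26516 (3.73%) in the other rows. This is a description of the reference sequence, not of the reads, and its part in the lack of a row was not tested.

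The share was also higher in windows with no row than in rows within each class of gene. Among genes of the listed families 44.0% of the promoters in windows with no row were copied, against 17.7% in rows. Among predicted Gm and LOC genes the shares were 33.9% and 5.36%, and among other protein-coding genes 7.13% and 1.53%. By length, 42.4% of the promoters in runs of 10 or more windows were copied, and 13.4% to 15.1% in shorter runs.

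Families differed in this respect. Of the vomeronasal receptor promoters 84.9% were copied in windows with no row, against 41.0% in rows, of the defensin promoters 84.6% against 30.3%, and of the zinc finger promoters 40% against 5.48%. All 10 major urinary protein promoters in such windows were copied, against 2 of 4 in rows. Some other families, with few promoters in windows with no row, had the lower share there. Examples are cytochrome P450 genes (0 of 4 against 23 of 74 in rows), MHC class I and II genes (0 of 4 against 9 of 31) and serpins (0 of 3 against 12 of 58). The olfactory receptor promoters were copied about as often in both, 14.4% of 236 in windows with no row against 13.5% of 706 in rows. The median GC content of promoters was 50.0% in windows with no row and 53.3% in rows that do not border one.

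**Figure D3:**
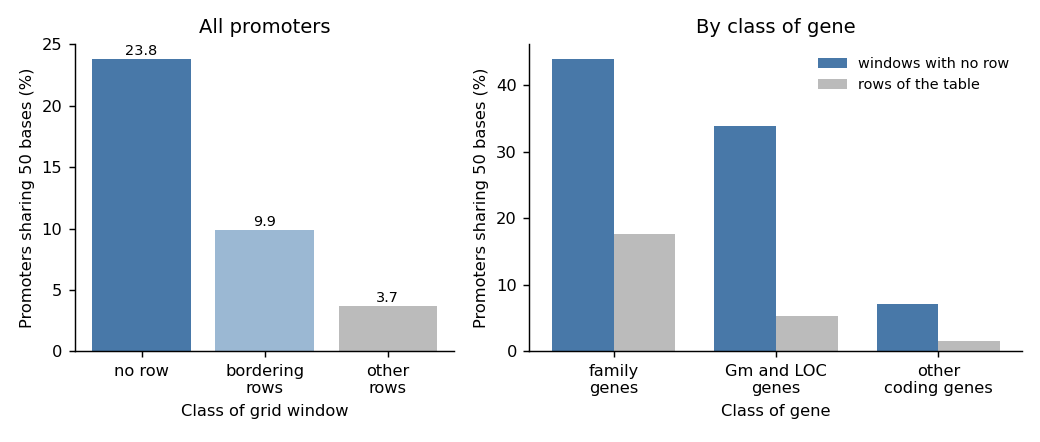
Share of RefSeq promoters (250 bases before to 50 after the start) that share at least 50 bases in a row with the promoter of another, non-overlapping gene, in percent. On the left, windows with no row (23.8%), bordering rows (9.89%) and other rows (3.73%); on the right, windows with no row (blue) beside rows of the table (grey) for 3 classes of gene, with the blue bar the taller in each.

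Most runs, however, hold no copied promoter. Of the 1207 runs, 155 hold at least 1, with 1246 windows and a median of 4 windows, 472 hold promoters of which none is copied, with 1583 windows, and 580 hold no promoter. Of the 76 runs of 10 or more windows, 42 hold a copied promoter, 25 hold 192 promoters of which 0 are copied, and 9 hold no promoter.

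The known markers of the cells were mostly in rows. Of 21 pluripotency genes, 19 had a row and 0 of these were at 0, with a median of 8 (range 1 to 19) and 12 (range 1 to 24) counts in replicates 1 and 2 (both alleles, per 50 kb row overlapped). Of 21 fibroblast genes, which mark the feeders, 21 had a row, with a median of 1.5 (range 0 to 8) and 2 (range 0 to 10) counts, and 3 were at 0 in each replicate. Of 25 housekeeping genes, 23 had a row, with medians of 6.5 and 5.5. The marker counts were thus higher for the labelled stem cells than for the feeders.

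4 genes of these lists start in windows with no row: Fgf4, Klf2, Emc7 and Tubb5. The Fgf4 run, chr7:144850001-144950000, has 2 windows, and the row before it, over Fgf3, had 0 and 2 counts from the 129 allele, against 1 and 0 from CAS, with 0 in the row after it. The Klf2 run, chr8:72250001-72650000, has 8 windows. The row before it had 2 and 2 counts from the 129 allele, against 2 and 2 from CAS, and the row after it, over Nwd1, had 3 and 5 against 2 and 2.

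Emc7, of the endoplasmic reticulum membrane complex, lies in a run of 3 windows, chr2:112400001-112550000. The row before it had 3 and 4 counts from the 129 allele, against 4 and 4 from CAS, and the row after it 2 counts in all. Tubb5, a beta-tubulin gene, lies in a run of 4 windows, chr17:35750001-35950000, with 1 and 1 counts from the 129 allele, against 0 and 0 from CAS, before it and 2 counts in all after it. For these 4 genes the allelic accessibility was therefore not analysed here, and the rows beside them hold other genes.

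The rows that border a window with no row had lower counts than the other rows. The 2122 bordering rows averaged 0.767 and 1.02 counts from the 129 allele in replicates 1 and 2, and the 41819 other rows 1.01 and 1.38. From the CAS allele the averages were 0.829 and 1.05 in bordering rows and 1.06 and 1.38 in other rows. In each of the 4 columns the bordering rows were lower.

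For both alleles together, bordering rows averaged 1.60 and 2.07 counts, a mean of 1.83 ± 0.334 (SD over n = 2 replicates), and other rows 2.07 and 2.76, a mean of 2.42 ± 0.484. Within a replicate the ratio of bordering to other rows was 0.769 and 0.749, a mean of 0.759 ± 0.0139 (SD, n = 2). The ratio lay further from 1 than its spread between replicates, but the two-sided exact permutation test over 2 replicates gave p = 0.5, the smallest it allows. Of the bordering rows 33.0% were at 0 in all columns, against 21.1% of the other rows, and among rows with a count alone the ratio was 0.905 and 0.882.

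The means were lowest next to the windows with no row. Both-allele means were 1.60 and 2.07 counts at a distance of 1 window, 2.02 and 2.56 at 2 windows, 2.10 and 2.68 at 3 windows, and 2.22 and 2.83 at 4 to 5 windows. At over 20 windows they were 2.02 and 2.75, so the mean at 2 windows was at or above that far value in replicate 1 and below it in replicate 2.

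**Figure D4:**
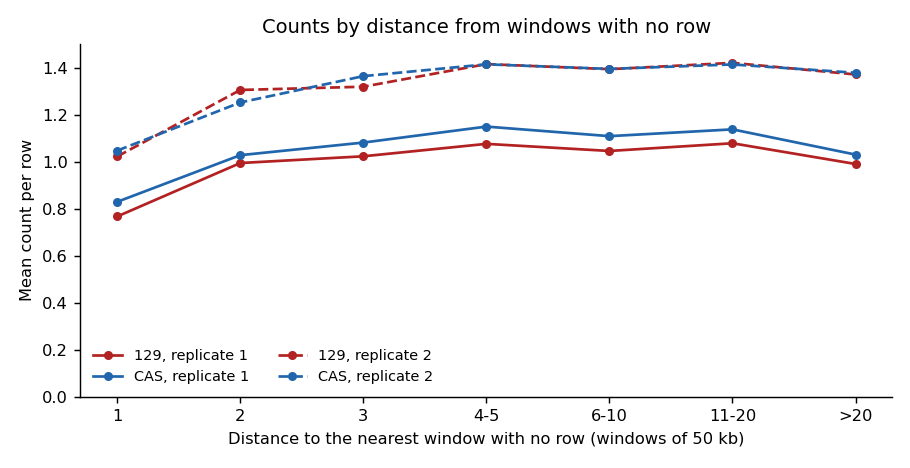
Mean count per row of each allele and replicate (129 red, CAS blue, replicate 1 solid, replicate 2 dashed) against the distance to the nearest window with no row, in windows of 50 kb. All 4 lines are lowest at a distance of 1, at 0.767 and 0.829 in replicate 1 (129 and CAS) and 1.02 and 1.05 in replicate 2.

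Rows beside the longer runs had the lower counts. Rows beside runs of 1 window averaged 1.62 and 2.12 counts (both alleles), beside runs of 2 to 4 windows 1.65 and 2.03, beside runs of 5 or more 1.25 and 1.78, and beside runs of 10 or more 1.16 and 1.70. The 292 rows with a window with no row on both sides averaged 1.13 and 1.55, and 45.5% of them were at 0 in all columns. Rows beside a run with a copied promoter averaged 1.16 and 1.59, against 1.93 and 2.22 beside runs whose promoters have no copy and 1.37 and 2.00 beside runs with no promoter.

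The kind of gene in the row left a difference in place. Among rows overlapping a protein-coding gene, bordering rows averaged 1.98 and 2.35 counts, and other rows 2.65 and 3.12. Among rows overlapping none, bordering rows averaged 0.932 and 1.58, and other rows 1.29 and 2.27. Bordering rows overlap a protein-coding gene more often, 63.5% against 57.5%, and a family gene more often, 10.7% against 4.84%.

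By chromosome, bordering rows were lower in both replicates on 18 of 19 and higher in both on 1, chromosome 8. The ratio of bordering to other rows on chromosome 8 was 1.20 and 1.00, over 96 bordering rows. The ratios farthest below 1 were those of chromosome 16, 0.482 and 0.374, over 62 bordering rows. On chromosome 2, where windows with no row are most frequent, the ratio was 0.674 and 0.718.

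**Figure D5:**
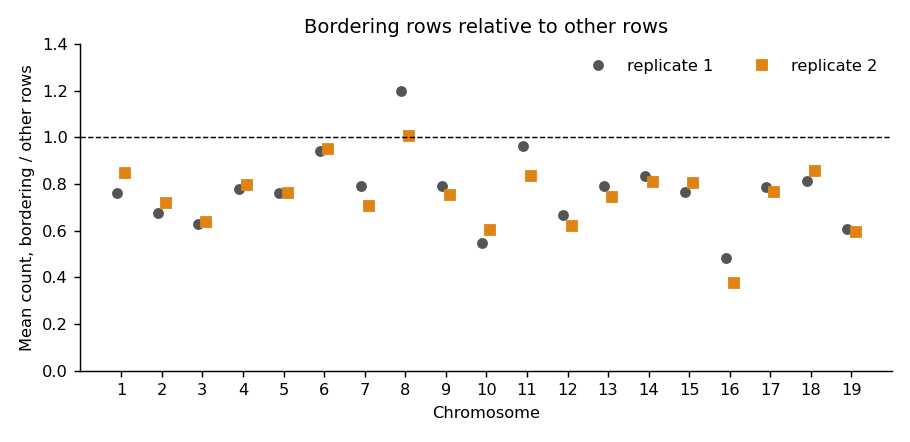
Ratio of the mean count (both alleles) in bordering rows to that in the other rows of the same chromosome, for replicate 1 (grey circles) and replicate 2 (orange squares); the dashed line marks equal means. Of 19 chromosomes 18 lie below the line in both replicates, and chromosome 8 lies above it at 1.20 and 1.00.

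Bordering rows could still be well covered. The 10 highest had sums of 24 to 37 over the 4 columns. The highest, chr6:145050001-145100000 over Bcat1, an enzyme of branched-chain amino acid breakdown, had 11 and 9 counts from the 129 allele in replicates 1 and 2, against 8 and 9 from CAS. The next, chr1:172300001-172350000 over Igsf8 and the potassium channel genes Kcnj9 and Kcnj10, had 7 and 8 against 10 and 10. The third, chr6:143150001-143200000 over Etnk1, a kinase of phospholipid synthesis, had 10 and 9 against 7 and 8. These 3 rows lie beside runs of 1 to 3 windows, and none of the 10 lies beside a run of more than 3.

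The share of counts from the 129 allele was examined in the same rows. In bordering rows it was 48.1% of 3386 counts in replicate 1 (exact Clopper-Pearson 95% interval 46.4 to 49.7) and 49.4% of 4389 in replicate 2 (47.9 to 50.9). In other rows it was 48.9% (48.5 to 49.2) and 49.9% (49.7 to 50.2). The difference, bordering minus other, was -0.81 and -0.55 percentage points, within the intervals of the bordering rows, with p = 0.5 in the two-sided exact permutation test, the smallest it allows. With rows up to 2 windows away counted as bordering it was -0.28 and 0.25 percentage points, so the 2 replicates then pointed opposite ways.

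No bordering row passed the allele test with edgeR. In its quasi-likelihood test over the 34417 rows with a count, 0 rows passed a Benjamini-Hochberg adjusted p of 0.05 (percent of rows called 0 for either allele), and so 0 of the 1422 bordering rows tested. At an unadjusted p under 0.05 there were 910 rows in all, 1.23% with 129 higher and 1.41% with CAS higher, and of the bordering rows 18 (1.27%) and 22 (1.55%), close to those shares. The same test with the replicate as a block, and DESeq2's Wald test, also gave 0 calls, with 65 and 11 rows at an unadjusted p under 0.05.

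A limma test on centred square roots called 33 rows with 129 higher (0.0959% of those tested) and 45 with CAS higher (0.131%), and among the bordering rows 3 and 3. The number depends on the rows entered: with rows at 0 in all columns included, a setting chosen after seeing the data, limma called 292 (0.665%) and 327 (0.744%) rows, 20 of them bordering. The rows with an allele higher by 3 or more in both replicates numbered 103 for 129 (0.234% of all rows) and 119 for CAS (0.271%), and 3 and 5 among the 2122 bordering rows. In 18 rows (0.041%) the replicates differed by 3 or more in opposite directions, 1 of them bordering. As shares of the bordering rows these counts are 0.211% and 0.211% by limma and 0.141% (129) and 0.236% (CAS) by the difference of 3 or more, from 3 to 5 rows each.

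6 bordering rows passed the limma test on rows with a count. All 6 also passed limma with rows at 0 included, at adjusted p of 0.00397 or less. That setting called more rows from the same counts, 619 against 78, so this pass is no separate support. The row chr3:106250001-106300000, beside a run of 2 windows that holds the chitinase-like gene Chil4, had 4 and 11 counts from the 129 allele in replicates 1 and 2, against 0 and 0 from CAS (limma adjusted p on rows with a count = 4.36e-08, edgeR adjusted p = 0.999). The row on the other side of that run had 2 and 3 against 0 and 0, so both edges of the Chil4 run held counts from the 129 allele alone. The row chr10:58200001-58250000, beside a run of 7 windows, holds Duxf3, of the Dux family that activates genes of the early embryo in mice. It had 1 and 1 counts from the 129 allele, against 6 and 8 from CAS (limma adjusted p = 0.00163, edgeR adjusted p = 0.999).

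The row chr14:52100001-52150000, over Hnrnpc, an RNA-binding protein gene, had 3 and 2 counts from the 129 allele, against 7 and 10 from CAS. The row chr17:36200001-36250000, beside a run that holds the MHC class I genes H2-M10.1 and H2-M10.2, had 0 and 0 against 4 and 4. In both of these rows CAS was the higher allele in each replicate. With 129 the higher, chr12:115650001-115700000 over the immunoglobulin segment Ighv1-70 had 3 and 5 counts against 0 and 1 from CAS, and chr6:142700001-142750000 over Abcc9, a subunit of potassium channels, had 2 and 5 against 0 and 0. Their edgeR adjusted p was 0.999 in each case, so the calls rest on the limma test alone. That limma test had no replicate block, so it left out the pairing of alleles by library. 3 more bordering rows, not called by limma, differed by 3 or more in both replicates. These were chr7:75750001-75800000 over Akap13, with 3 and 3 counts from the 129 allele, against 7 and 7 from CAS, chr13:76250001-76300000 over Fam81b, with 4 and 4 against 7 and 7, and chr17:27200001-27250000 over Lemd2, with 6 and 5 against 2 and 2.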

How the data were processed

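ATAC-seq counts were available for 2 replicates of F121-6. Bowtie2, MACS2, SAMtools, bedtools and the mm10 build are listed in the submitters' processing notes, with no version or role. The authors deposited whole-number counts per 50 kb window, 1 column for each allele and replicate, with no visible normalization. The feature counted, the allele assignment and the choice of windows are not given, so the reads behind each value are unknown.

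The regions, gene lists and tests were chosen with earlier results of these data known. Grid windows were annotated from RefSeq tables with Python 3.11.15. The runs named, with genes in them, are the 10 longest with ties and the longest of each chromosome, the lowest in coordinate where runs tied. The families named have the most genes or the highest share in windows with no row. Also named are the 10 highest bordering rows and bordering rows with an allelic difference of 3 or more in both replicates. The Abcc9 row was added because limma called it, and other additions are marked in the text. No set test was run.

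The fit was edgeR 4.0.16 (R 4.3.3) with TMM, on rows with at least 1 count. Alternatives were the replicate as a block, filterByExpr, DESeq2 1.42.0 and limma 3.58.1 on square roots of the counts with each column centred. The alleles are paired by the replicate number, since each library yields both. Among the fits, the block fit alone used this pairing. The deviations of the 2 alleles of a replicate correlated at 0.291 over 43941 rows. Data were simulated with 200 changed windows of 31731 (16-fold) or 31778 (4-fold). The changes were placed in windows above the median sum, and counts were drawn independently, without pairing of alleles. edgeR recovered 63.5% and 3%, with 0 false calls, and the block fit 0% and 3%. limma recovered 85.5% and 7.5%, with 12 and 1 false calls. Bordering rows had a median sum of 2 over the columns, against 4 in other rows, so these recoveries do not carry over to them.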

Additional observations from a re-analysis of the deposited data

How the results depend on the processing

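The ratio of bordering to other rows stayed below 1 in every alternative tried for it, 0.749 to 0.769 with 1 replicate left out and 0.624 to 0.929 over the others, which took 1 allele, other distances, run lengths, gene content or rows with a count. The difference in 129 share was -0.81 to -0.55 percentage points with 1 replicate left out and -0.02 with rows up to 2 windows away. Counting runs of 5 or more windows alone left 2271 windows, and protein-coding genes alone gave 22.0% of family genes in windows with no row, against 20.3% over all kinds. There were 136 alternatives for families and gene lists, with all genes and protein-coding genes outside the families included. Of these, 11 fell outside the exact 95% interval of the value reported and 125 within it. The interval treats genes as independent, though many share a run and the alternatives redefine the same genes, so falling within it says little. With the replicate block, which follows the pairing of alleles by library, the allele test gave 0 calls. Without the block, DESeq2 also gave 0 calls. limma, also without it, gave 78, or 619 with rows at 0 in all columns included (chosen after seeing the data), all in rows with a count. In the simulation, which had no pairing of alleles, the block fit recovered 0% of 16-fold changes, so its 0 says little. filterByExpr left 40 rows, of which 0 border a window with no row. Leaving out a replicate could not be fitted for the allele test, since 1 column per allele leaves no residual degrees of freedom. Counts this small limit single rows.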
